A study of Mus musculus with 2 samples.

Results

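The nuclear genes of mitochondrial oxidative phosphorylation were followed in the livers of male mice lacking apolipoprotein E that drank squalene, a triterpene intermediate of cholesterol synthesis. Members were all genes whose array symbol belongs to the families Nduf, Sdh (a to d), Uqcr, Cox (4 to 8) or Atp5, on probe sets with a single gene symbol. The rule found 84 genes, on 156 probe sets, among 12393 genes on 20380 such probe sets. Where a gene had several, the probe set brightest on average over both pools (mean of log2 signals) stood for it. The squalene pool came from mice on chow and a 1% glycerol drink that supplied 1 g/kg of squalene daily over 10 weeks, and the control pool from mice on chow and the 1% glycerol drink alone. Both pools lacked apolipoprotein E on a C57BL/6J/OLA129 background, and the labels give their age as 2 months. Without this protein, remnant particles accumulate in plasma and arterial lesions form. Each pool was read on 1 Affymetrix mouse array, how many livers were pooled is not stated in the labels, and there are no replicates, so no test between the pools could be made and every difference below is between these 2 arrays.

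Oxidative phosphorylation makes most of the ATP of the hepatocyte. Complex I takes electrons from NADH and complex II from succinate, complex III passes them from ubiquinol to cytochrome c, and complex IV hands them to oxygen. Complexes I, III and IV pump protons across the inner mitochondrial membrane, and complex V, the ATP synthase, makes ATP as the protons flow back. Complex II is also an enzyme of the citric acid cycle and pumps none. Several catalytic subunits of complexes I, III, IV and V are encoded by mitochondrial DNA, and 0 probe sets carried a symbol of that kind, so only nuclear subunits are described. Liver is rich in mitochondria.

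The subunit genes were close to level between the pools. The median log2 ratio of squalene over control was -0.07 over the 84 members, and 70 members (83.3%) lay within 0.3 of a ratio of 0. At a mean signal of at least 1000, 94.2% of members and 84.0% of other genes lay within 0.3. Within 0.1 the shares were 33.3% and 39.8%, so nearness to 0 was not particular to the members. By complex, the median was -0.09 for complex I (38 genes), 0.15 for complex II (4 genes), -0.03 for complex III (8 genes), -0.13 for complex IV (17 genes) and -0.13 for complex V (17 genes). No test stands behind this order. The values are relative to the array scaling: when the arrays were scaled to the hybridization spike-ins, every ratio was raised by the same amount and the medians of complexes I, III, IV and V turned positive, while the order of the complexes did not move. After quantile normalization, which sets the 2 arrays to the same distribution, the medians were -0.030, 0.17, 0.034, -0.028 and -0.035 for complexes I to V, so those of complexes I, IV and V lay closer to 0.

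Both arrays had signals of like range. Over all probe sets except array controls, signals ran from 0.1 to 20695.1 with a median of 41.35 in the squalene pool, and from 0.2 to 22342.9 with a median of 39.9 in the control pool. The spike-in controls had a median log2 ratio of -0.26, the amount by which the alternative scaling raises every ratio. Of the hepatocyte markers, 9 of 9 found were well read, with a median ratio of -0.06. Of 8 macrophage markers, 7 lay below 0, with a summed signal of 2682.6 in the squalene pool and 4260.4 in the control pool. The part of this difference in the ratios below was not tested, and in bulk RNA fewer cells of a type and less RNA per cell cannot be told apart.

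Most members could be read well. A gene is called well read here when neither of its signals fell below the median of its array, which held for 78 of 84 members. The other 6 members (Ndufaf5, Cox4i2, Cox6b2, Cox7a1, Cox7c and Cox8b) lay below the median in both pools. A mean signal of at least 1000 was reached by 69 members, and these are called bright.

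Beyond a log2 ratio of 0.5, 7 members were higher in the squalene pool and 2 lower. Over all genes 21.5% were higher and 19.8% lower by that measure, most of them dim. Among well-read genes the background was 7.85% higher and 6.35% lower, and 3 of the 78 well-read members were higher and 1 lower. None of the 69 bright members passed 0.5 in either direction, against 2.11% higher and 3.27% lower of all 948 bright genes. The submitters screened at a log2 ratio of 1.5, which 0 members passed, against 15.2% of all genes, 0.124% of well-read genes and 0.211% of bright genes. Bright members had an SD of 0.17 across genes, and other bright genes one of 0.27, but the 2 sets differ in signal. At a mean signal of 4000 or more the SDs were 0.15 and 0.18. Between 1000 and 2000 they were 0.19 and 0.32.

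A small majority of members lay below 0, as did bright genes in general. Below 0 were 53 of 84 members (63.1%), against 48.6% of all genes and 48.8% of well-read genes. Among bright genes the figures were 48 of 69 members and 60.0% of all 948. The share followed the signal. Between mean signals of 1000 and 2000, 9 of 17 members (52.9%) and 52.2% of other genes lay below 0, and at 4000 or more the figures were 17 of 22 members (77.3%) and 72.8%. In the band from 2000 to 4000 it was 22 of 30 members (73.3%) and 58.8% of other genes. The median ratio of members at 4000 or more was -0.13, and that of other genes so bright was -0.09. The share of members below 0 also depended on the processing. It was 46 of 84 (54.8%) after quantile normalization and again after loess. On plain-suffix probe sets it was 32 of 63 (50.8%), and with spike-in scaling 14 of 84 (16.7%).

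**Figure D1:**
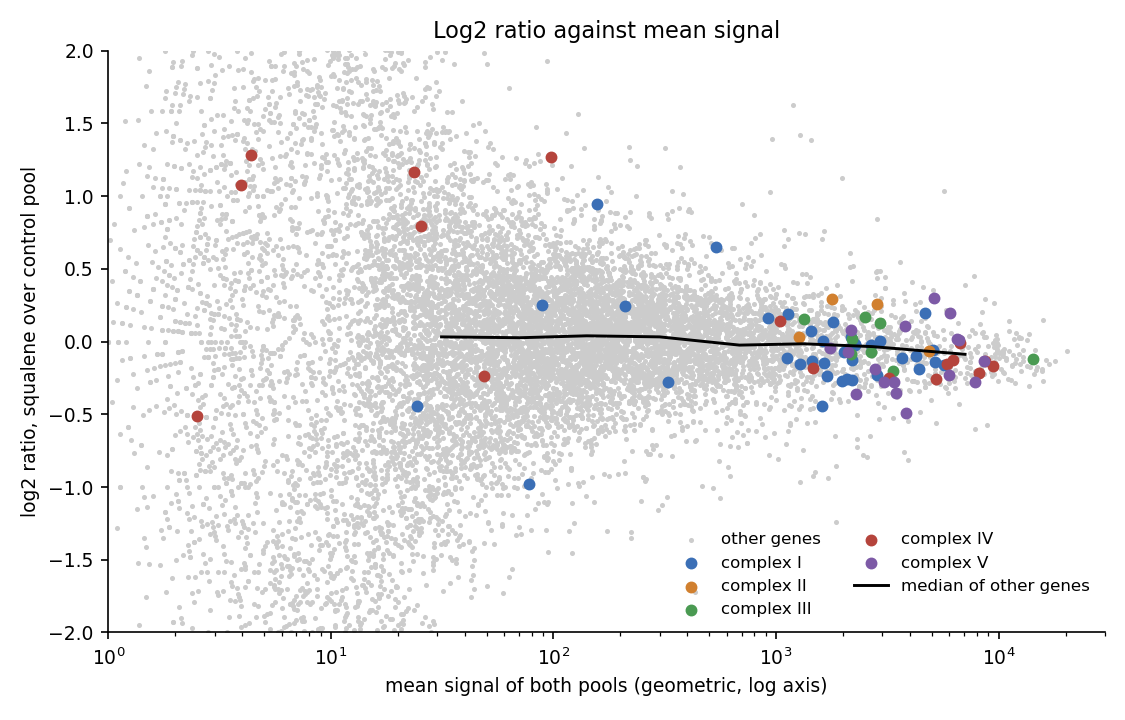
Log2 ratio of squalene over control (vertical axis) against the geometric mean signal of both pools (horizontal log axis) for each gene, with members coloured by complex and other genes in grey. The black line joins medians of other genes in signal bands; it dips at high signal, where most members lie, and other genes beyond a ratio of 2 in either direction or below a mean signal of 1 are not drawn.

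The only repeated readings of a gene on these arrays are its probe sets. Their spread measures differences between probe sets only. Differences between animals, pools or arrays are not part of it and could not be measured without replicates. For the 40 members with several well-read probe sets, the log2 ratio had a within-gene SD of 0.14, and the median gap between a gene's highest and lowest probe set was 0.16. In 18 of these 40 genes the probe sets fell on both sides of 0. The widest gap, 0.49, was that of Ndufab1, the mitochondrial acyl carrier protein that is also a complex I subunit. Its own reading was 1964.2 in the squalene pool and 2068.2 in the control pool (-0.07), and a further, dim probe set gave 0.81. Single ratios below about that size cannot be separated from probe set differences. Whether larger ratios exceed the differences between animals, pools or arrays was not tested. Probe sets whose identifiers end in _s_at or _x_at can also match related transcripts, and several of these families have pseudogenes.

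**Figure D2:**
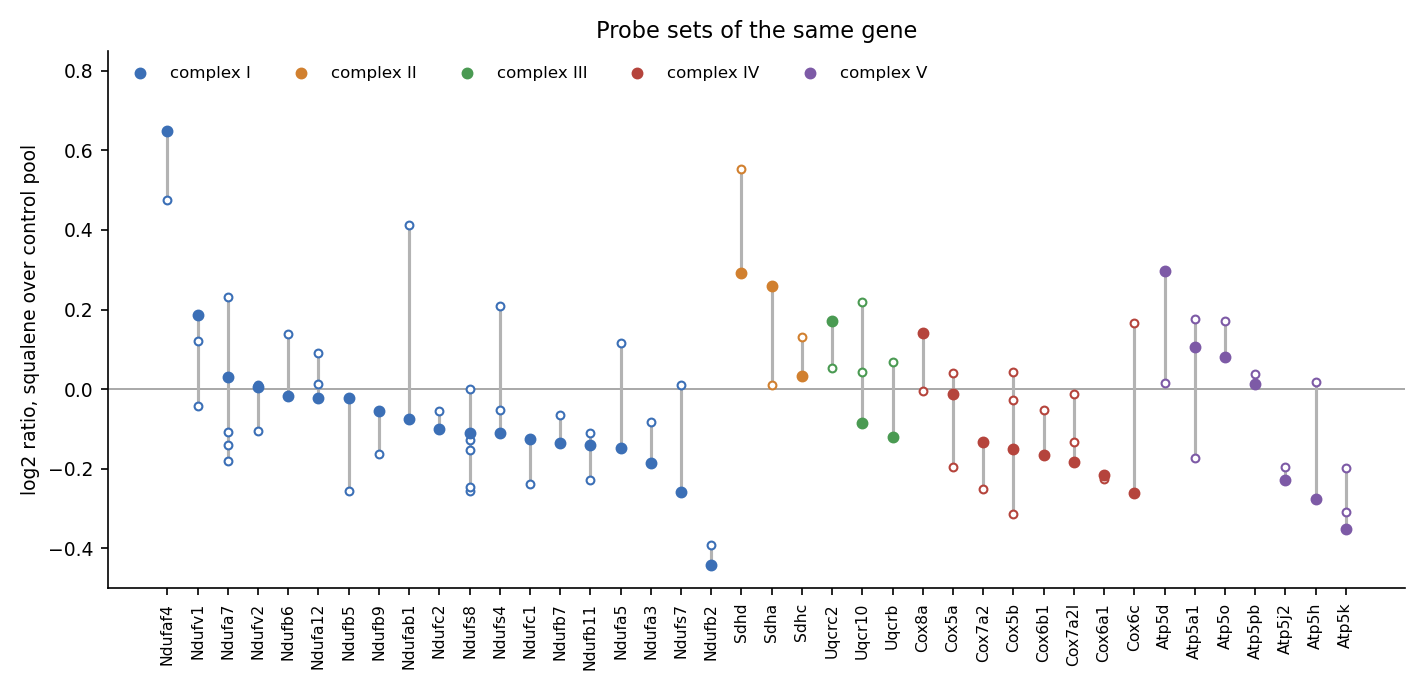
Log2 ratio of squalene over control (vertical axis) on each well-read probe set of the 40 members that have several. Filled points are the probe set used, open points the others, and grey lines join a gene's lowest and highest. Ndufb2, Cox6a1, Atp5j2 and Atp5k were among the genes below 0 on all of theirs, and Ndufaf4, Sdhd, Sdha, Sdhc and Uqcrc2 among those above 0.

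Promoters of 4 members, some higher and some lower in the squalene pool, are given, since these genes are returned to below. Sdhd and Ndufaf4 were higher in the squalene pool on both of their probe sets, and Atp5md and Ndufb2 were the lowest bright members; the 4 were chosen after their values were seen. Each window holds 250 bases before and 50 after the annotated start in RefSeq's GRCm38.p6 annotation, 5′ to 3′ on the gene's strand, at chr9:50603800-50604099 (minus strand) for Sdhd, chr4:24897833-24898132 (plus) for Ndufaf4, chr19:47090598-47090897 (minus) for Atp5md and chr6:39592315-39592614 (plus) for Ndufb2. Capitals mark matches to the motifs described after them.
Sdhd: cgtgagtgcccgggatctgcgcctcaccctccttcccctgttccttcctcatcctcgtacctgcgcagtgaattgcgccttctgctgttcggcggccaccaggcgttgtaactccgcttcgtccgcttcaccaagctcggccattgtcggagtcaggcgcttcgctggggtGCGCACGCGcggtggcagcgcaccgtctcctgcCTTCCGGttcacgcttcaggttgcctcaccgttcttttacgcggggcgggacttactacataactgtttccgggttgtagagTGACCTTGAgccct
Ndufaf4: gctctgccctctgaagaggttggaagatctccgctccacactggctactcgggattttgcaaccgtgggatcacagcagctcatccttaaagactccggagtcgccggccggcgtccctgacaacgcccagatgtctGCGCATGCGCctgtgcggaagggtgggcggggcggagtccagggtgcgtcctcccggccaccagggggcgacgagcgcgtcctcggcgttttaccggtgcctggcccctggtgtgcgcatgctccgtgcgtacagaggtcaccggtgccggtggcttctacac
Atp5md: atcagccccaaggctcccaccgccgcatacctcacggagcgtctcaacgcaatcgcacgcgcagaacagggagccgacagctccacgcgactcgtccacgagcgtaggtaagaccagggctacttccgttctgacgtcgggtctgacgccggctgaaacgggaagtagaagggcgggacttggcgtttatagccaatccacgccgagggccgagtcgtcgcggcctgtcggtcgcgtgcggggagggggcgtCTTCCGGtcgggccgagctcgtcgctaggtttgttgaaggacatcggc
Ndufb2: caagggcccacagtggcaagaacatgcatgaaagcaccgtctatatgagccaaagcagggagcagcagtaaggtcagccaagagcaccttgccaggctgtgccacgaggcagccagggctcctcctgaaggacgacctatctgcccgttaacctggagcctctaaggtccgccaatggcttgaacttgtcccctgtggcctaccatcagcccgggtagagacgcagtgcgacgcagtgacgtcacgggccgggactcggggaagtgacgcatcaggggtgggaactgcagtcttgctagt

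Motifs of factors known to act on respiratory chain genes were searched on both strands of these windows. They were GCGCANGCG for NRF1, CCGGAAG for ETS factors such as GABPA, AANATGGCG for YY1 and TNAAGGTCA for the estrogen-related receptors, and each was counted regardless of overlap with another. A promoter was found for 70 of the 84 members, taking the first listed where there were several. The NRF1 letters were in 18 of 70 member promoters (25.7%) and 6.42% of the 26955 other promoters, and the ETS letters in 17 (24.3%) and 9.08%. The YY1 letters were in 7 (10.0%) and 2.49%, and those of the estrogen-related receptors in 2 (2.86%) and 1.25%. The other promoters were those of all other genes with a listed promoter, on the array or not. They were not matched to the members for signal, so these shares do not show a trait particular to the members. Sdhd held the NRF1, ETS and estrogen-related receptor letters, Ndufaf4 those of NRF1, Atp5md those of ETS, and Ndufb2 none of the 4. The median log2 ratio was -0.14 for the 18 members with the NRF1 letters and -0.07 for the 52 without. For the ETS letters the medians were -0.14 over 17 members and -0.07 over 53. Both gaps were smaller than the within-gene SD of 0.14 given above, and neither was tested. Members with the NRF1 letters had the lower median in complexes I, IV and V and the higher in complexes II and III. For the YY1 letters the medians were -0.12 over 7 members and -0.07 over 63. Those for the estrogen-related receptor letters were 0.08 over 2 members and -0.08 over 68.

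The 38 genes of complex I lay on both sides of 0, with 26 below it. Its NADH module, the tip that oxidises NADH, was level, with a median of -0.02 over 9 genes. Ndufv1, the subunit that binds NADH and flavin, read 1201.8 in the squalene pool and 1055.4 in the control pool (log2 ratio 0.19), and 1 of its 2 other probe sets read -0.04. Ndufs1, the largest subunit and a carrier of iron-sulfur clusters, read 975.2 in the squalene pool and 869.5 in the control pool (0.17). Both were slightly higher in the squalene pool. Ndufv2, another iron-sulfur subunit of the tip, read 2937.2 in the squalene pool and 2926.6 in the control pool (0.01). At the lower end of the module were the accessory subunits Ndufa6 (-0.26) and Ndufv3 (-0.23), with Ndufs4 at -0.11. Ndufa12, an accessory subunit, read 2238 in the squalene pool and 2271.8 in the control pool (-0.02), and a dim probe set of it gave 1.11.

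The quinone module, which passes electrons to ubiquinone, had a median of -0.13 over 4 genes. Ndufs3 read 1471.5 in the squalene pool and 1401 in the control pool (0.07). Ndufs7, which carries the last iron-sulfur cluster before ubiquinone, read 1899.9 in the squalene pool and 2272.4 in the control pool (-0.26), but its other probe set read 0.01. Ndufs8, an iron-sulfur subunit, read 3544.4 in the squalene pool and 3824.5 in the control pool (-0.11), and its 6 probe sets ran from -0.25 to 0.00. The module thus held values on both sides of 0.

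The membrane arm, which houses the proton pumps, had a median of -0.11, with 16 of 20 genes below 0. Over the whole array, 48.8% of well-read genes and 60.0% of bright genes lay below 0. The arm had a median of -0.049 after quantile normalization, -0.053 after loess and 0.15 when scaled to the spike-ins. Ndufb2 was its lowest bright member, at 1379.4 in the squalene pool and 1872.1 in the control pool (-0.44), and its other probe set read -0.39. Ndufb8 (-0.27) and Ndufb10 (-0.24) followed. Ndufa1, with the highest signal in complex I, read 5358.7 in the squalene pool and 6004.3 in the control pool (-0.16). Besides Ndufs5, described next, those above 0 were Ndufa13, also known as Grim19, at 5020.4 in the squalene pool and 4379.3 in the control pool (0.20), Ndufa10 (0.13) and Ndufa8 (0.00).

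The most extreme ratios of the arm came from dimmer probe sets. Ndufb1 read 55.1 in the squalene pool and 108.4 in the control pool (-0.98), and Ndufs5 read 216.6 in the squalene pool and 112.5 in the control pool (0.95). Each rests on a single probe set. A further probe set that lists Ndufs5 also lists a pseudogene and was not used. Over all 31 well-read probe sets of the arm, 25 lay below 0.

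Assembly factors, which help build complex I but are not part of it, had a median of 0.24 over the 5 Ndufaf genes, and 0.25 over the 4 well read. The 4 complex I assembly factors found under other names read below 0, with Ecsit at -0.24, Timmdc1 at -0.02, Acad9 at -0.01 and Foxred1 at -0.02. Ndufaf4 read 676 in the squalene pool and 430.9 in the control pool, 1.57-fold higher (log2 ratio 0.65), and its second probe set read 0.48. Ndufaf7 (0.26) and Ndufaf3 (0.24) were also above 0. Ndufaf1 stood at -0.28, and Ndufaf5, dim in both pools, at -0.44. So 3 of the 5 lay above 0, and of the 5 only Ndufaf4 lay beyond 0.5.

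**Figure D3:**
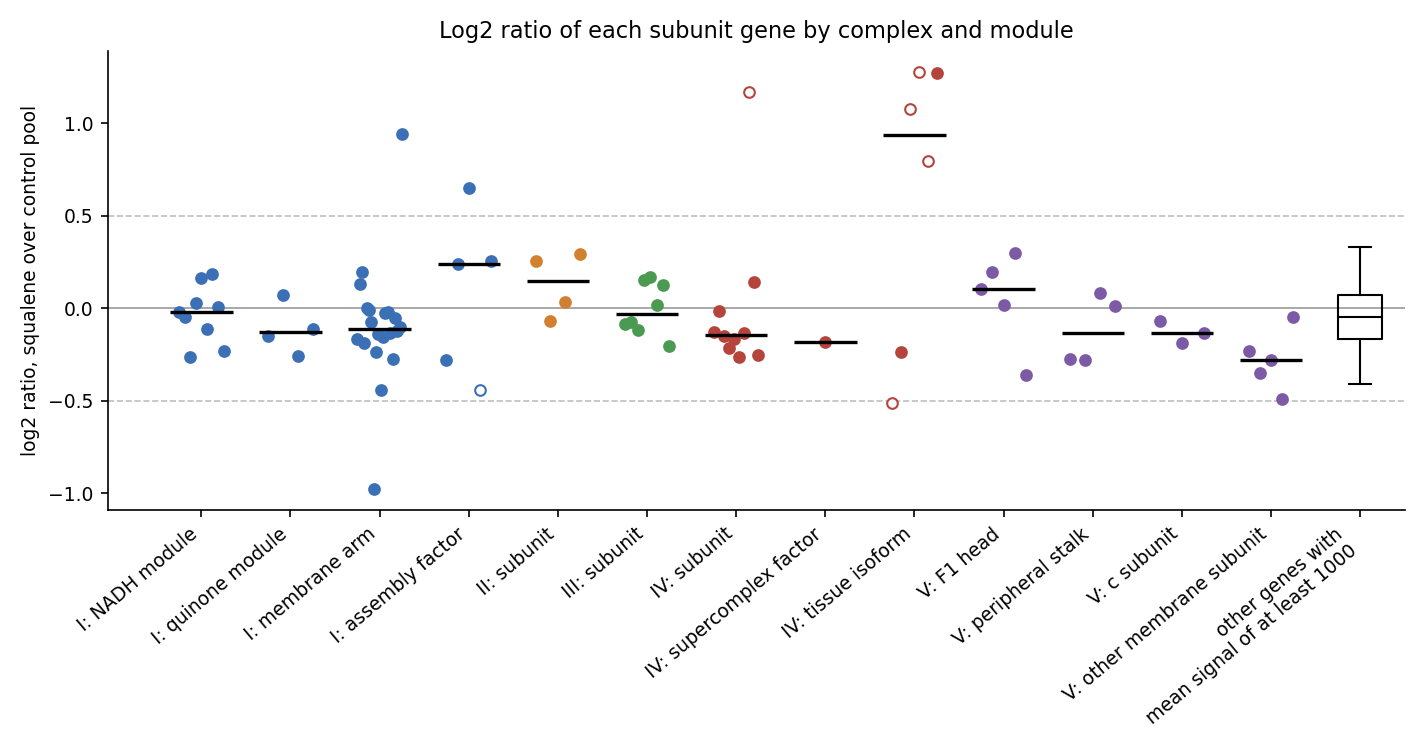
Log2 ratio of squalene over control (vertical axis) for each of the 84 members, grouped by complex and module. Filled points are well-read genes, open points the others, black bars medians, dashed lines 0.5 in either direction, and the box at the right shows the quartiles of 879 other bright genes, with whiskers at the 5th and 95th percentiles. Complex II, the F1 head, the assembly factors and the mostly dim tissue isoforms have medians above 0, and the other membrane subunits of complex V have the lowest.

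Complex II had the highest median, 0.15 over its 4 genes. With the probe set of smallest ratio taken for each gene it was 0.022, below the 0.048 of complex III; it lay above 0 under each alternative run. Sdha, the flavoprotein that oxidises succinate, read 3101 in the squalene pool and 2592.9 in the control pool (0.26). Sdhd, a membrane anchor that helps bind ubiquinone, read 1968.2 in the squalene pool and 1608.1 in the control pool (0.29), and its dimmer probe set read 0.55. The other anchor, Sdhc, read 1283.9 in the squalene pool and 1254 in the control pool (0.03). Sdhb, the iron-sulfur subunit, read 4737.8 in the squalene pool and 4965.8 in the control pool (-0.07). Sdha and Sdhd thus read higher in the squalene pool and Sdhb and Sdhc close to level, but the gap between Sdha and Sdhc was no wider than that between the probe sets of Sdha.

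Of the 7 probe sets of complex II, 6 lay above 0, with Sdhb the exception. The second probe set of Sdha read only 0.01. The gap between the medians of complexes II and V was 0.28, and 0.09 when each gene's least shifted probe set was taken.

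Complex III was level, with 4 of 8 genes on each side of 0. Uqcrc1 and Uqcrc2, the large core proteins that face the matrix, were both slightly higher. Uqcrc1 read 1404 in the squalene pool and 1262.3 in the control pool (0.15), and Uqcrc2 read 2666.3 in the squalene pool and 2369.9 in the control pool (0.17). Uqcrh, the hinge protein that contacts cytochrome c1, stood at 0.12. Uqcrfs1, the Rieske iron-sulfur protein that takes electrons from ubiquinol, read 2196.9 in the squalene pool and 2173.3 in the control pool (0.02). Uqcrb, with the highest signal among the members, read 13731.9 in the squalene pool and 14917.3 in the control pool (-0.12), and its other probe set read 0.07. Lowest was Uqcrq, a small subunit, at 3118.9 in the squalene pool and 3587.3 in the control pool (-0.20). Its 3 other probe sets were dim, with ratios down to -1.55. The ratios thus ran from -0.20 to 0.17 and straddled 0. The complex's median was -0.03, and 0.037 when a gene's probe sets were averaged, 0.048 with the probe set of smallest ratio, 0.034 after quantile normalization and 0.027 after loess.

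**Figure D4:**
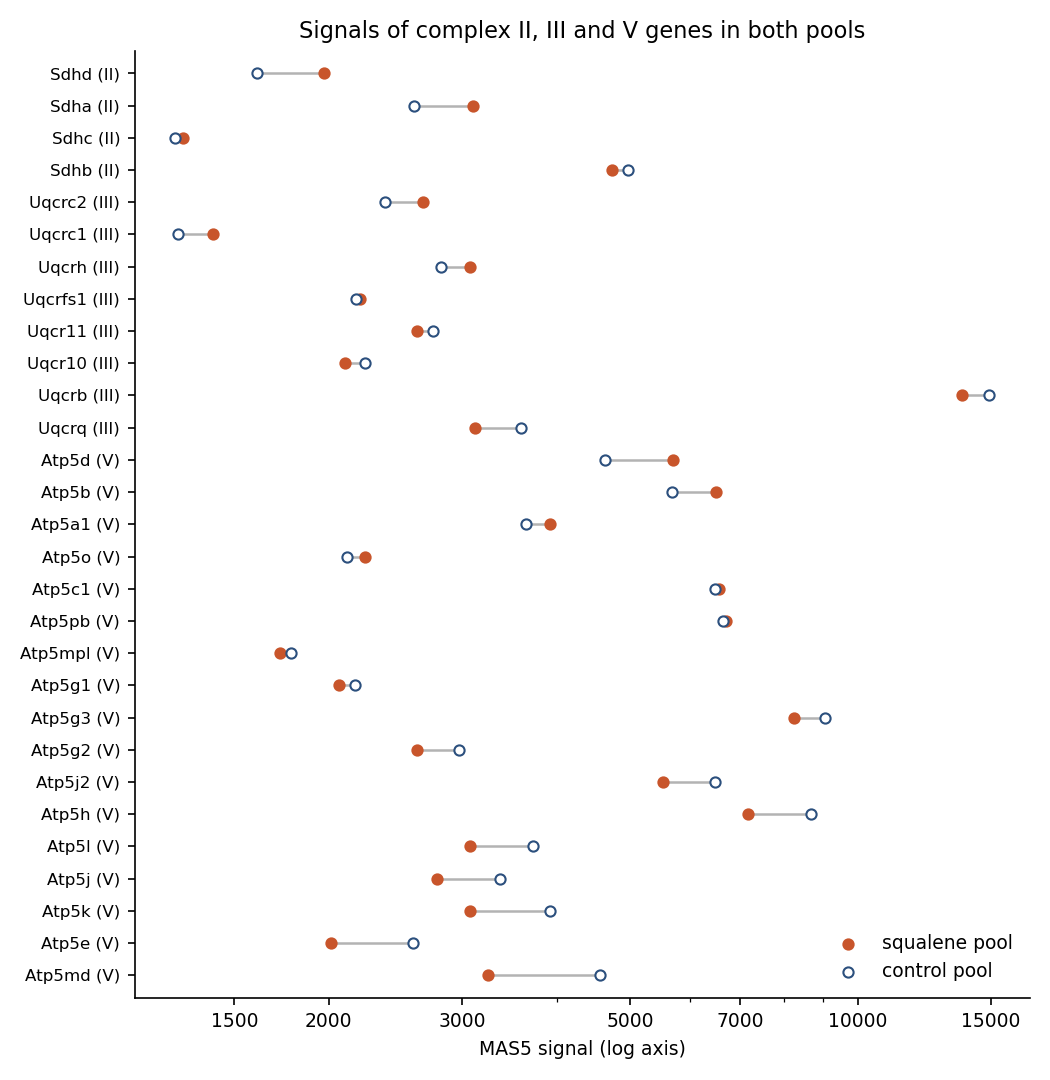
MAS5 signal (horizontal log axis) of every complex II, III and V gene in the squalene pool (filled) and the control pool (open), ordered within each complex by log2 ratio. Sdhd, Sdha, Atp5d and Atp5b show the squalene pool to the right, and Atp5md, Atp5e and Atp5k show it to the left.

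In complex IV most subunits found in liver read a little lower in the squalene pool. The median of the whole complex, -0.13, depended on the processing: it was -0.028 after quantile normalization, -0.046 after loess, -0.046 on plain-suffix probe sets and -0.026 when each gene's least shifted probe set was taken. Of its 9 well-read subunits, tissue isoforms apart, 8 lay below 0, with a median of -0.15. Most of them had mean signals of 4000 or more, where 72.8% of other genes also lay below 0. Cox6c read 4783.9 in the squalene pool and 5731.2 in the control pool (-0.26), although its second probe set read 0.17. Ndufa4, named for complex I but now placed in complex IV, read 2960.2 in the squalene pool and 3520 in the control pool (-0.25). Cox6a1 read 7585.6 in the squalene pool and 8805.7 in the control pool (-0.22), with -0.23 on its other probe set, so its probe sets gave the same size. Cox4i1, a regulatory subunit and common mitochondrial marker, read 5959.3 in the squalene pool and 6507.8 in the control pool (-0.13). All of these were lower in the squalene pool, by less than 0.3.

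Cox5a, an accessory subunit, read 6664.7 in the squalene pool and 6719.7 in the control pool (-0.01). Other well-read probe sets of Cox5a read 0.04 and -0.19. Its partner Cox5b read 5577 in the squalene pool and 6191.1 in the control pool (-0.15). Another Cox5b probe set of like signal read 5666.6 in the squalene pool and 5503.6 in the control pool (0.04). Its further well-read probe sets gave -0.31 and -0.03. The widely expressed Cox6b1, with the highest signal of the complex, read 8870.1 in the squalene pool and 9955.4 in the control pool (-0.17), and Cox7a2, the isoform of non-muscle tissue, read 8300.6 in the squalene pool and 9106 in the control pool (-0.13). On the probe sets used, these 4 subunits also lay below 0. Cox8a was the exception, at 1099.2 in the squalene pool and 997 in the control pool (0.14). A dim probe set of Cox5b gave a ratio of 2.89, with 17.8 in the squalene pool and 2.4 in the control pool. A dim probe set of Cox8a gave -4.02, with 1.9 in the squalene pool and 30.8 in the control pool. Cox7a2l, which links complexes III and IV into supercomplexes, stood at -0.18, and its 3 probe sets all lay below 0. The bright genes of this complex lay in the signal range where other genes also tended to lie below 0.

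Tissue isoforms of complex IV gave several of the widest ratios among the members, mostly at low signals. Cox6a2, Cox7a1 and Cox8b are the isoforms of heart and skeletal muscle, Cox4i2 is typical of lung, and Cox6b2 and Cox8c are typical of testis. Cox7a1 read 6.8 in the squalene pool and 2.8 in the control pool (1.28), and Cox6b2 read 5.7 in the squalene pool and 2.7 in the control pool (1.08). Cox8b read 33.3 in the squalene pool and 19.2 in the control pool (0.79). Cox4i2 read 2.1 in the squalene pool and 3 in the control pool (-0.51). These 4 genes were below the array median in both pools, so their ratios compare readings near the floor.

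Of the isoforms, only Cox6a2 and Cox8c were well read. Cox6a2 stood just above the median, at 44.9 in the squalene pool and 52.8 in the control pool (-0.23). Cox8c read 150.7 in the squalene pool and 62.4 in the control pool, 2.42-fold higher (1.27), on its single probe set. The 11 muscle markers examined with them, among them Ckm and Acta1, all lay below the median in both pools. The summed signal of those 11 was 70.2 in the squalene pool and 81.9 in the control pool. Cox7c, a subunit found in all tissues, was dim on its named probe sets too, at 35.5 in the squalene pool and 15.8 in the control pool (1.17), and its second read -0.04.

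**Figure D5:**
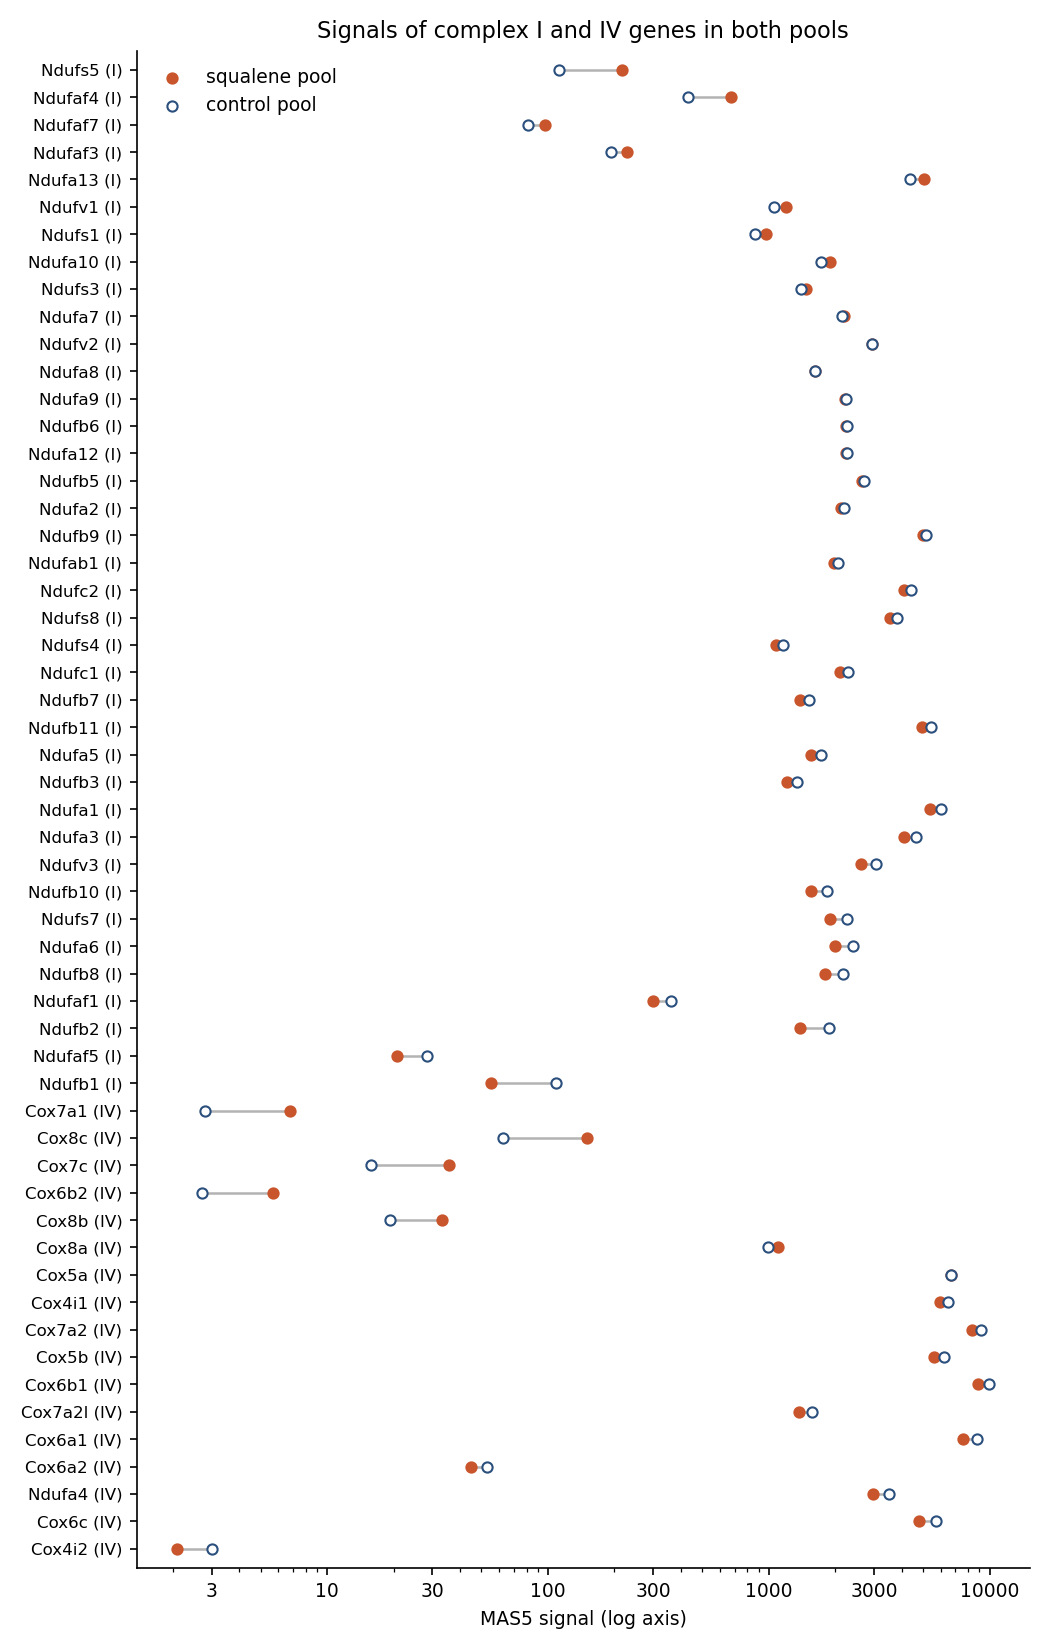
MAS5 signal (horizontal log axis) of every complex I and IV gene in the squalene pool (filled) and the control pool (open), ordered within each complex by log2 ratio. The wide gaps belong to genes with low signals, such as Cox7a1, Cox8c, Cox7c and Ndufb1, and the bright subunits show overlapping or close points.

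The modules of complex V overlapped, with the highest median in the F1 head and the lowest in the accessory membrane subunits. Genes of the F1 head, the catalytic part in the matrix, had a median of 0.10, with 4 of 5 above 0. Atp5b, the catalytic beta subunit, read 6499.9 in the squalene pool and 5680.5 in the control pool (0.19). Atp5d, the delta subunit of the rotor stalk, read 5700.4 in the squalene pool and 4640.1 in the control pool (0.30), and 0.02 on its dimmer probe set. Both of these were higher in the squalene pool. Atp5a1, the alpha subunit, read 3921.7 in the squalene pool and 3646.9 in the control pool (0.10), and its other probe sets read 0.18 and -0.17. Atp5c1, the gamma subunit, was level at 6559.7 in the squalene pool and 6476 in the control pool (0.02). The exception was Atp5e, the small epsilon subunit, at 2010.5 in the squalene pool and 2582.9 in the control pool (-0.36) on its single probe set, below 4 of the 5 accessory membrane subunits.

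The accessory membrane subunits, which help hold the enzyme's dimers in the curved cristae, had the lowest median of the modules, -0.28, with 5 of 5 genes and 8 of 8 probe sets below 0. Other genes in their signal range also tended to lie below 0. The shares were 52.2% at mean signals from 1000 to 2000, 58.8% from 2000 to 4000 and 72.8% at 4000 or more. Atp5md, also known as Usmg5, read 3251.2 in the squalene pool and 4561.8 in the control pool, 0.713 times the control signal (-0.49), on its single probe set. Atp5k, subunit e, read 3072.8 in the squalene pool and 3921.2 in the control pool (-0.35), and its 3 probe sets ran from -0.35 to -0.20. Every probe set of these genes thus read lower in the squalene pool. Atp5l, subunit g, read 3071.6 in the squalene pool and 3727 in the control pool (-0.28). Atp5j2, subunit f, read 5537.9 in the squalene pool and 6487.7 in the control pool (-0.23), with -0.20 on its other probe set. Atp5mpl was close to level (-0.04). When scaled to the spike-ins, the module's median was -0.02 and that of the F1 head 0.36. The gap between these 2 modules was 0.38. Centring, spike-in scaling and the filters on signal could not change it, since they shift all ratios alike or remove only dimmer genes. It was 0.35 with the mean of probe sets, 0.22 with the probe set of smallest ratio, 0.38 after quantile normalization and 0.39 after loess. On plain-suffix probe sets it was 0.32, with 3 genes left in the F1 head and Atp5d and Atp5e absent. The gap was noticed in the values and has no test.

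The c subunits and the peripheral stalk lay between them. The 3 genes of the c ring, which turns as protons pass, encode the same mature protein, and all were slightly lower. Atp5g3 read 8245.9 in the squalene pool and 9041.4 in the control pool (-0.13), beside Atp5g1 at -0.07 and Atp5g2 at -0.19. The stalk, which holds the head still, was split. Atp5o, the stalk's contact with the head, read 2236.1 in the squalene pool and 2113.1 in the control pool (0.08), and Atp5pb, subunit b, stood at 0.01. Atp5h and Atp5j were lower, both at -0.28, although the second probe set of Atp5h read 0.02.

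Genes of the same pathway outside the named families also lay close to 0 where they were bright. Cyc1, the cytochrome c1 subunit of complex III, read 3422.4 in the squalene pool and 3587.1 in the control pool (-0.07). Cycs, the cytochrome c of somatic cells, read 7218.6 in the squalene pool and 7394.6 in the control pool (-0.03). Of 15 carriers and ubiquinone synthesis genes found of 17 listed, 1 was higher and 3 lower beyond 0.5, with a median of -0.16. The share lower was near the 19.8% of all genes, so the count says nothing particular to these genes. Coq8a, a kinase-like protein of ubiquinone synthesis, read 449.5 in the squalene pool and 853.6 in the control pool (-0.93), but its other probe set read -0.12. The other three beyond 0.5 (Cyct, Coq6 and Coq8b) each had a signal below the array median in at least 1 pool.

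Assembly factors of the other complexes, with a few further ones of complex I, included genes beyond 0.5 in both directions. Of 29 found of 39 listed, 21 lay below 0, 3 were higher and 5 lower beyond 0.5, and the median was -0.08. Over all genes 21.5% were higher and 19.8% lower, so neither count exceeded its background, while among the 28 well read 2 were higher and 5 lower, against 7.85% and 6.35% of well-read genes. Tmem70, an ATP synthase assembly factor, read 467.1 in the squalene pool and 292.8 in the control pool (0.67). Coa7, a complex IV assembly factor, stood at 0.53. Lower were Atpaf2, a chaperone of the F1 head, at 73.1 in the squalene pool and 141.6 in the control pool (-0.95), Cox18 (-0.62), Pet100 (-0.55) and the copper chaperone Cox17 (-0.53), of which Cox17 had another probe set at 2.22. Oxa1l, an inner membrane insertase, stood at -1.30, with 0.24 on its other probe set. Most of these genes had mean signals well under 1000, where the spread of all genes was wider than among the bright subunits.

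Citric acid cycle enzymes, which feed the chain, had a median of 0.09, with 0 of 12 found genes beyond 0.5 in either direction. All 12 were well read, and of well-read genes 7.85% were higher and 6.35% lower by that measure, so a count of 0 among so few is near the background. Idh3a, the catalytic subunit of the NAD-dependent isocitrate dehydrogenase, was the highest, at 833.5 in the squalene pool and 628.5 in the control pool (0.41), and its 3 probe sets ran from 0.36 to 0.80. Fh1, the fumarase next in line after complex II, read 3943.9 in the squalene pool and 3484.8 in the control pool (0.18). Cs, the citrate synthase used as a measure of mitochondrial content, read 750.6 in the squalene pool and 769.6 in the control pool (-0.04). Of the 12, 8 lay above 0.

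Regulators of these genes had a median of 0.30 over the 11 listed, all found. Of these, 4 were higher and 0 lower beyond 0.5, and among the 10 well read 3 were higher, against the backgrounds of 21.5% and 7.85% given above. Ppargc1a, a coactivator of mitochondrial genes, read 221.3 in the squalene pool and 74.8 in the control pool (1.56), with 0.23 on the lowest of its 5 probe sets. The related Pprc1 read 99.1 in the squalene pool and 59.6 in the control pool (0.73). Nrf1, whose product binds the NRF1 letters above, read 56.8 in the squalene pool and 27 in the control pool (1.07), a dim control reading, and another probe set gave -0.90. Gabpb1, the partner of GABPA, stood at 0.60 and Esrra, an estrogen-related receptor, at 0.36. Ppargc1b (-0.13) and Tfam, which packs and transcribes mitochondrial DNA, at 376.1 in the squalene pool and 430.2 in the control pool (-0.19), were slightly lower.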

How the data were processed

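Liver RNA of 2 pools was read on 1 Affymetrix array each. MAS5 made the deposited linear intensities, 1 per probe set, per the submitters' processing notes. Its version and scaling target were not found in the labels. The groups came from the sample titles. The 64 array controls were left out of all gene values. Symbols came from the platform annotation, and all 84 members matched RefSeq by Entrez number with the same symbol; promoters are RefSeq's on GRCm38.p6.

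The log2 ratio of squalene over control was taken with no pseudocount or filter, on the brightest single-symbol probe set of each gene. With 1 array per group there are no p-values, and the number of arrays limits the precision. The members and lists were chosen with earlier results of these data known. Values of both pools are given for core subunits, for the brightest and most extreme well-read members of each complex, for members beyond 0.5 or with a probe set of opposite sign differing by over 0.5, and for tissue isoforms. The medians of the members and of all genes were tested on simulated data, and the counts were not. Alternatives covered probe set choice, filters, a pseudocount of 3.0, floors, centring, spike-in scaling, quantile and loess normalization (limma 3.58.1 in R 4.3.3), membership and limits. Python 3.11.15, numpy 2.4.6, pandas 2.3.3 and matplotlib 3.10.9 were used.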

Additional observations from a re-analysis of the deposited data

How the results depend on the processing

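With 1 array per pool, no replicate could be left out, and no paired analysis was possible because each group has 1 array. Signal over background limits the 6 members below the array median in both pools, and the brightness of a probe set limits the rest. Scaling to the spike-ins gave medians of 0.18 over all members and of 0.17, 0.40, 0.23, 0.12 and 0.13 for complexes I to V, with 14 members below 0, 11 higher and 1 lower beyond 0.5, and 2 beyond 1.5. It shifted the median of all genes to 0.27. Probe sets with the plain suffix only, for 63 members, gave medians of 0.0010 for complex I and 0.042 for complex III, with 32 members below 0 and 1 beyond 1.5. Complex III also turned positive with the mean of probe sets (0.037), the probe set of smallest ratio (0.048), quantile normalization (0.034) and loess (0.027).

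The count lower beyond 0.5, 2 as reported, was 5 with the mean of probe sets, 1 over well-read genes, with the pseudocount, with floored signals and without tissue isoforms, and 0 over genes at or above the 75th percentile in both pools or a mean signal of at least 1000. The count higher, 7 as reported, was 3 over well-read genes, with floored signals and without tissue isoforms, 1 at the 75th percentile and 0 at a mean signal of at least 1000. The limits themselves gave 7 lower at 0.3, 0 lower and 4 higher at 1.0, and 4 beyond 1.0 in place of 0 beyond 1.5. The settings without tissue isoforms and with a mean signal of at least 1000 were chosen after seeing the data. Movements under 0.14, the within-gene SD, can be as large as the medians themselves: apart from the spike-in scaling, the median of all members lay between -0.0998 and -0.010, of complex II between 0.022 and 0.26, of complex IV between -0.16 and -0.026 and of complex V between -0.15 and -0.035, and complex I was -0.030 after quantile normalization. The median of complex II thus kept its sign under every alternative, but not its size. The medians of all members and of complexes IV and V turned positive under the spike-in scaling and kept a sign, but not a size, under the rest. The median of complex I turned positive under that scaling and also, at 0.0010, on plain-suffix probe sets.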

Other observations

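Mitochondrial genes outside the respiratory chain, taken as a measure of mitochondrial content, had ratios on both sides of 0. Of 15 found of 16 listed, 1 was higher and 0 lower beyond 0.5 on the log2 scale, with a median ratio of 0.02. All 15 were well read, and the counts are near the background of well-read genes, 7.85% higher and 6.35% lower. The voltage-dependent anion channel genes of the outer membrane, Vdac1 (0.01), Vdac2 (0.16) and Vdac3 (-0.05), differed little between the pools. Hspd1, the matrix chaperonin, read 3605.6 in the squalene pool and 2649.1 in the control pool (0.44), while its partner Hspe1 read 2352 in the squalene pool and 2594.7 in the control pool (-0.14). Slc25a5, a carrier that exchanges ADP for ATP, read 6283.1 in the squalene pool and 5405 in the control pool (0.22), and all 8 of its probe sets lay above 0, from 0.16 to 0.64. Tomm70a, an import receptor, stood at 0.52, with -0.72 on the lowest of its 4 probe sets.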
